A study of Mus musculus with 56 samples.

Results

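The interferon-gamma-inducible GTPases described here are 10 genes: 6 guanylate-binding proteins (Gbp2, Gbp3, Gbp4, Gbp5, Gbp6 and Gbp7) and 4 immunity-related GTPases (Igtp, Irgm1, Irgm2 and Iigp1). They were chosen by name, and all 10 were found by Ensembl identifier among the 53431 features measured. Their RNA was read in whole front paws of male DBA/1 mice at day 91 of collagen-induced arthritis (CIA), a model in which immunisation with type II collagen brings on autoimmune joint inflammation. Immunised mice received chicken type II collagen on days 1 and 21, and from day 21 were injected 2 times a week for 5 weeks. The anti-TNF group received clone XT3.11 at 30 mg/kg (13 mice), the anti-IL-6 group clone MP5-20F3 at 10 mg/kg (13 mice), the combination group both antibodies at these doses (13 mice), and the isotype group a control IgG1 at 30 mg/kg (13 mice). The labels give the last 4 mice as no CIA and list no antibody for them. Each library came from 1 mouse, the labels give no age, and injections had ended before the paws were taken. Levels are in FPKM, which counts fragments for a given transcript length and library depth, so they can be compared between genes. The sum of FPKM differed between libraries, from 546778 to 644540, so comparisons between libraries are approximate.

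Both families are switched on in many cell types by interferon-gamma, a cytokine of T and natural killer cells, through its receptor and the JAK kinases. Promoters that respond to interferon-gamma often carry motifs called gamma-activated sites (GAS) or interferon-stimulated response elements (ISRE), of which the ISRE is bound by IRF1 and by factors of the type I interferon response. In mice the guanylate-binding proteins coat vacuoles and bacteria, and aid inflammasome assembly. Among the immunity-related GTPases of the mouse, Irgm1, Irgm2 and Igtp (also called Irgm3) are regulators that sit on the cell's own membranes and hold effectors such as Iigp1 (also called Irga6) in an inactive state there.

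The genes lie on 3 chromosomes of GRCm38, apart from Iigp1, whose identifier version differed from the annotation used and which has no coordinates here. Gbp5 (chr3:142493978-142522344), Gbp7 (chr3:142530342-142550149), Gbp3 (chr3:142560026-142573209) and Gbp2 (chr3:142620602-142638008) lie in this order on the plus strand. Gbp4 (chr5:105115767-105139586) and Gbp6 (chr5:105270702-105293698) are on the minus strand. Irgm1 (chr11:48861968-48871683, minus strand) lies apart from Igtp (chr11:58199556-58207591) and Irgm2 (chr11:58199618-58222782), 2 plus-strand genes whose annotated spans overlap. The promoters of 7 members are shown because these are the stretches where the interferon motifs named above would stand. They come from RefSeq windows on GRCm38.p6 and run 5′ to 3′ from 170 bases before to 10 bases after the annotated start, with letters that match a GAS (TTCNNNGAA, the same on both strands) or an ISRE (GAAA, 2 bases of any kind and GAAA, or on the other strand TTTC, 2 bases of any kind and TTTC) in capitals.
Gbp2: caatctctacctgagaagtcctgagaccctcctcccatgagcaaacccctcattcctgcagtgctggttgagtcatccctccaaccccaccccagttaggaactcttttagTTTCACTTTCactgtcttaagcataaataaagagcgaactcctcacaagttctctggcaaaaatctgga
Gbp3: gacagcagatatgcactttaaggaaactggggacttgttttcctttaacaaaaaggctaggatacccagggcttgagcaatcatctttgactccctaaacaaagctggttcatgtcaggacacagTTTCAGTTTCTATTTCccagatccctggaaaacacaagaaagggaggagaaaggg
Gbp5: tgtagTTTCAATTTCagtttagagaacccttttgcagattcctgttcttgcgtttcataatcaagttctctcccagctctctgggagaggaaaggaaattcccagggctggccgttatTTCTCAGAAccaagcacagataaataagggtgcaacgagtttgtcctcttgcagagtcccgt
Gbp7: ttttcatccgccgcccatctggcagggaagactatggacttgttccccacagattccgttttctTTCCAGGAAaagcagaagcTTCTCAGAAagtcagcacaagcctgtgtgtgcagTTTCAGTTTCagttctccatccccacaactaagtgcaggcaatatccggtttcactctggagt
Igtp: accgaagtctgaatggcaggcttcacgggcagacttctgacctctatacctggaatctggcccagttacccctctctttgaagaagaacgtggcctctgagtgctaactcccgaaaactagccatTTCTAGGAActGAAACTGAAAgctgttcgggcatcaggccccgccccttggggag
Irgm1: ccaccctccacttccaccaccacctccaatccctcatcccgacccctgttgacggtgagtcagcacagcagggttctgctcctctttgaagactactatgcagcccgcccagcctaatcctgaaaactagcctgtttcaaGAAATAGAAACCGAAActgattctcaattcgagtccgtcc
Irgm2: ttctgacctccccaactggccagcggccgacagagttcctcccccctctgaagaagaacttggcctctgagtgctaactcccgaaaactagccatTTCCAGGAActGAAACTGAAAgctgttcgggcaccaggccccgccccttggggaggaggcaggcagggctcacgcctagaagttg

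The coordinates of these stretches are Gbp2 chr3:142620493-142620672 (plus strand), Gbp3 chr3:142559874-142560053 (plus strand), Gbp5 chr3:142496764-142496943 (plus strand), Gbp7 chr3:142530166-142530345 (plus strand), Igtp chr11:58199386-58199565 (plus strand), Irgm1 chr11:48871411-48871590 (minus strand), Irgm2 chr11:58214807-58214986 (plus strand). An ISRE match was present in the promoters of all 7 members, against 3.44% of the 32851 RefSeq promoter windows of the same 300 bases. A GAS match was present in 4 of them (Gbp5, Gbp7, Igtp and Irgm2), against 8.3% of all windows, and these 4 held both motifs, against 0.454% of all windows. The ISRE matches began between positions -64 and -24 from the start in every one of these promoters but that of Gbp5, where the match began at -165. A further GAS match of Gbp5, at -245 to -237, lies outside the stretch shown. Gbp3 and Irgm1 each carried a pair of ISRE matches that overlapped each other. The promoters of Igtp and Irgm2 were 91.1% identical over an alignment of 247 identical bases, 17 mismatches and 7 gaps, and in both the GAS and ISRE matches stood side by side with the same spacing. Another RefSeq window of Gbp3, at a later start, held neither motif. The table used held no window for Gbp4, Gbp6 or Iigp1. A match is a run of letters and does not show that a factor bound there.

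**Figure D1:**
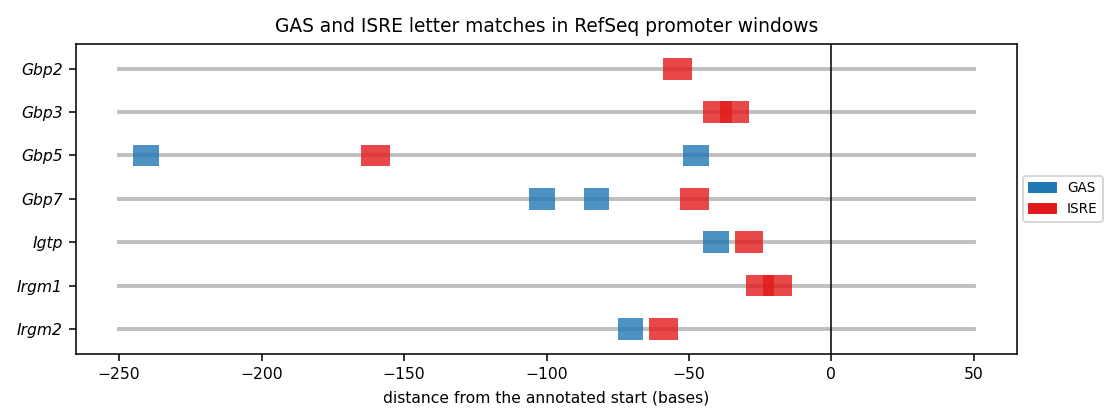
Positions of GAS matches (blue) and ISRE matches (red) in the promoter windows of 7 members, with distance from the annotated start in bases on the horizontal axis. All 7 windows hold an ISRE match, and those of Gbp5, Gbp7, Igtp and Irgm2 also hold a GAS match.

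Depth and sharing of reads set how far these values can be read. The estimated depth was 39.9 to 54.8 M fragments per library. Identical libraries were not found, and 2 libraries, anti-IL-6 replicates 13 and 6, had the lowest median correlation with the others. The no CIA libraries were all in the first of 5 runs of index numbers, together with only isotype replicates 4 and 7. These runs follow on from each other in index number, with the cuts where the mouse numbers drop back to a low one. The labels name no batch, so a run need not be a batch. Muscle, epidermal, bone and fibroblast markers were all detected, as whole paws would give. Gbp6 is the uncertain member: 67.3% of its 75-base transcript stretches also occurred in another gene, mainly Gm43302 and Gbp10, so its fragments may have been shared between copies. The share was 11.3% for Gbp7, 7.8% for Igtp and under 5% for the other members, with 0% for Irgm1 and Iigp1.

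Every member had a higher mean in each of the 4 immunised groups than in no CIA mice. Averaged over the 52 immunised mice, the ratio of mean FPKM to no CIA was 4.49 for Iigp1, 2.38 to 2.75 for Gbp2, Gbp3, Gbp4, Gbp5, Gbp7, Igtp and Irgm2, 1.90 for Irgm1 and 1.59 for Gbp6. The antibody groups and isotype had means within 19% of each other for each member. None of the tested members was called different between them (limma adjusted p under 0.05). Of all tested features, 0.00% were called for anti-TNF or combination against isotype, so the lack of calls there is not particular to the members. For anti-IL-6 against isotype, 0.735% were called higher and 0.218% lower. Intervals of the members' differences among immunised groups reached -0.48 and 0.53 on the log2 scale, so differences of that size are not excluded. In a whole paw, more cells of a type and more RNA per cell cannot be told apart.

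**Figure D2:**
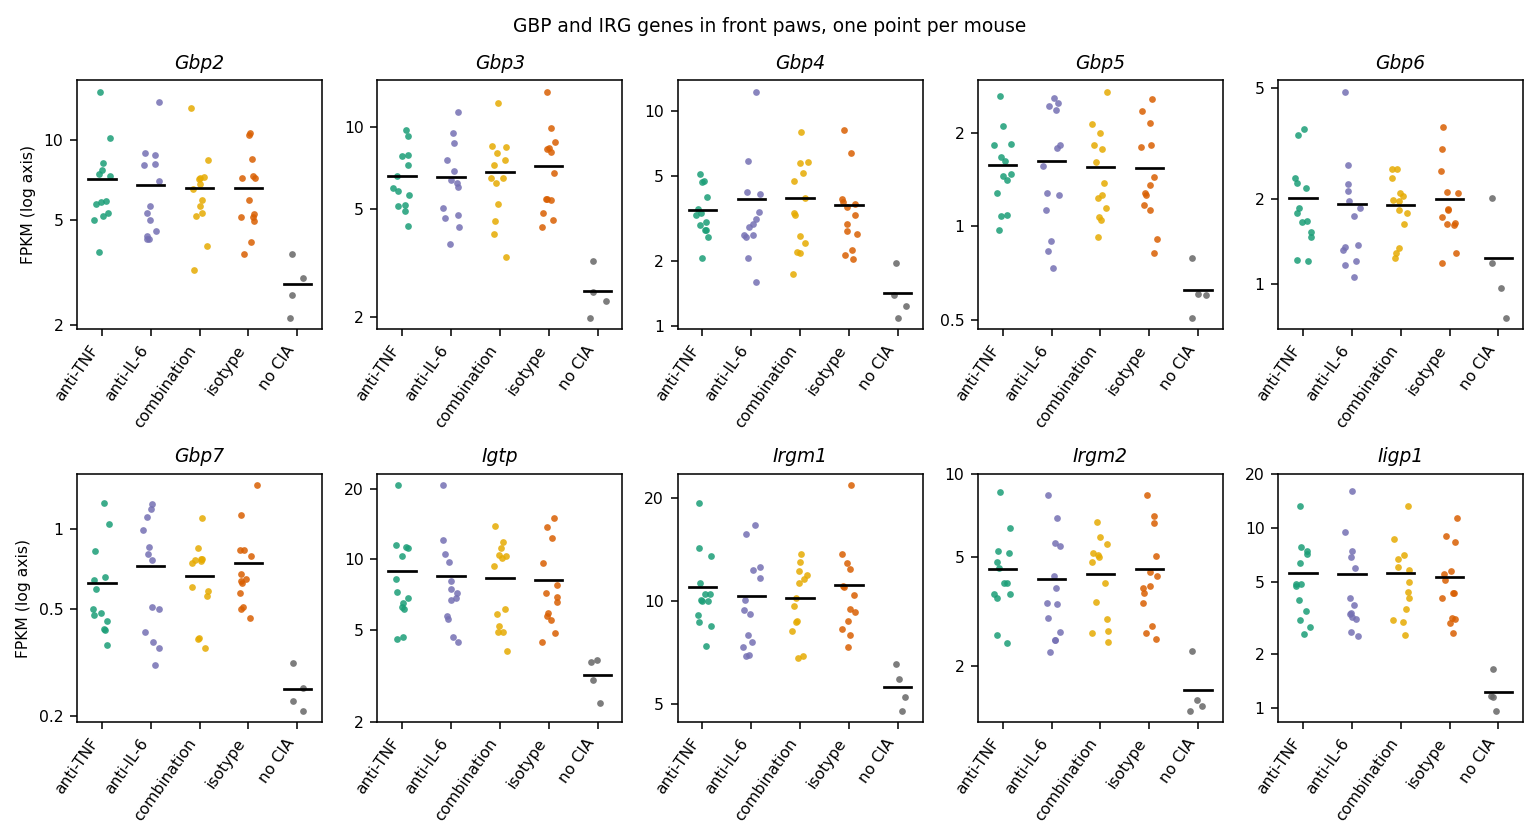
FPKM of each member in every mouse on a log axis, by group, with 1 point per mouse and a black line at the group mean. The no CIA mice lie lowest, with the most overlap for Gbp6, while the 4 immunised groups overlap each other in every panel.

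Among the guanylate-binding proteins of the first cluster, Gbp2, which coats pathogen vacuoles, was 3.78 to 15.3 FPKM in anti-TNF mice (median 5.88), 4.21 to 13.9 in anti-IL-6 mice (median 5.60), 3.23 to 13.2 in combination mice (median 6.52) and 3.70 to 10.6 in isotype mice (median 5.91), against 2.58, 3.00, 3.69 and 2.12 FPKM in the 4 no CIA mice. The lowest combination mouse was below the highest no CIA mouse, and the other 3 immunised groups did not overlap no CIA. Mean Gbp2 was 7.14 ± 2.96, 6.76 ± 2.80, 6.59 ± 2.44 and 6.56 ± 2.23 FPKM in anti-TNF, anti-IL-6, combination and isotype mice, and 2.85 ± 0.665 in no CIA mice (SD, n = 13 in each immunised group and 4 in no CIA, as for all means that follow).

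Gbp3, another guanylate-binding protein, was 4.33 to 9.78 FPKM in anti-TNF mice (median 5.98), 3.72 to 11.4 in anti-IL-6 mice (median 6.20), 3.33 to 12.3 in combination mice (median 6.51) and 4.27 to 13.5 in isotype mice (median 6.75), against 2.29, 2.47, 3.20 and 1.98 FPKM in no CIA mice. All 52 immunised mice were above all 4 no CIA mice, although the nearest pair, 3.33 in a combination mouse and 3.20 in a no CIA mouse, almost met. Its means were 6.58 ± 1.71, 6.55 ± 2.25, 6.80 ± 2.35 and 7.21 ± 2.65 FPKM in anti-TNF, anti-IL-6, combination and isotype mice, and 2.49 ± 0.518 in no CIA mice.

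Gbp5, which promotes NLRP3 inflammasome assembly, and Gbp7, which has been linked to assembly of the phagocyte NADPH oxidase, are in the same cluster at lower levels. Gbp5 averaged 1.57 ± 0.459, 1.63 ± 0.670, 1.55 ± 0.522 and 1.54 ± 0.550 FPKM in anti-TNF, anti-IL-6, combination and isotype mice, and 0.626 ± 0.118 in no CIA mice, where the values were 0.508, 0.600, 0.789 and 0.605. Its lowest immunised value was 0.733, in an anti-IL-6 mouse, which is the only group to overlap no CIA. Gbp7 averaged 0.626 ± 0.265, 0.725 ± 0.335, 0.664 ± 0.211 and 0.745 ± 0.278 FPKM in these immunised groups, and 0.251 ± 0.0467 in no CIA mice, with values of 0.208, 0.226, 0.315 and 0.255. It was the faintest member in every group, and it too overlapped no CIA only in the anti-IL-6 group, whose lowest mouse had 0.310.

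On chromosome 5, Gbp4 averaged 3.44 ± 0.911, 3.88 ± 2.75, 3.94 ± 1.85 and 3.65 ± 1.75 FPKM in anti-TNF, anti-IL-6, combination and isotype mice, and 1.42 ± 0.380 in no CIA mice, with values of 1.09, 1.39, 1.96 and 1.24. Its range was widest in the anti-IL-6 group, 1.61 to 12.3, where it overlapped no CIA, as it did in the combination group (lowest 1.75). Gbp6 averaged 2.02 ± 0.741, 1.92 ± 1.00, 1.90 ± 0.447 and 2.01 ± 0.687 FPKM in the same 4 groups, and 1.23 ± 0.554 in no CIA mice, with values of 0.757, 0.969, 2.02 and 1.19. It overlapped no CIA in every immunised group. Of the copies that share its sequence, Gm43302 averaged 2.98 ± 1.18, 2.68 ± 1.27, 3.01 ± 0.837 and 2.72 ± 0.988 FPKM in anti-TNF, anti-IL-6, combination and isotype mice, and 2.58 ± 1.34 in no CIA mice. Gbp10 averaged 1.41 ± 1.70, 1.13 ± 1.04, 1.53 ± 1.11 and 1.22 ± 0.963 FPKM in anti-TNF, anti-IL-6, combination and isotype mice, and 2.33 ± 2.02 in no CIA mice, where 1 of 4 mice was at 5.34. Gbp6, Gbp10 and Gm43302 summed to 6.40 ± 3.25, 5.73 ± 3.00, 6.44 ± 2.15 and 5.94 ± 2.44 FPKM in anti-TNF, anti-IL-6, combination and isotype mice, and 6.14 ± 3.89 in no CIA mice, so the sum did not separate the groups.

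Of the regulators, Irgm1 was the most abundant member in every group. It was 7.39 to 19.3 FPKM in anti-TNF mice (median 10.1), 6.89 to 16.6 in anti-IL-6 mice (median 9.37), 6.78 to 13.7 in combination mice (median 10.2) and 7.34 to 21.8 in isotype mice (median 10.4), against 4.75, 5.91, 6.52 and 5.21 FPKM in no CIA mice. Every immunised mouse was above every no CIA mouse. The means were 11.0 ± 3.14, 10.3 ± 3.25, 10.2 ± 2.27 and 11.1 ± 3.78 FPKM in anti-TNF, anti-IL-6, combination and isotype mice, and 5.60 ± 0.777 in no CIA mice.

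Igtp was 4.54 to 20.8 FPKM in anti-TNF mice (median 7.28), 4.44 to 20.9 in anti-IL-6 mice (median 7.15), 4.06 to 13.9 in combination mice (median 9.38) and 4.44 to 15.1 in isotype mice (median 6.88), against 3.03, 3.62, 3.71 and 2.41 FPKM in no CIA mice. It also placed all immunised mice above all no CIA mice. Irgm2, the regulator whose span overlaps Igtp, was 2.42 to 8.55 FPKM in anti-TNF mice (median 3.99), 2.25 to 8.34 in anti-IL-6 mice (median 3.40), 2.44 to 6.67 in combination mice (median 4.79) and 2.50 to 8.37 in isotype mice (median 3.91), against 1.51, 1.37, 2.26 and 1.43 FPKM in no CIA mice. Only the lowest anti-IL-6 mouse, at 2.25, was below the highest no CIA mouse, at 2.26. Mean Igtp was 8.89 ± 4.35, 8.45 ± 4.37, 8.32 ± 3.26 and 8.11 ± 3.50 FPKM in anti-TNF, anti-IL-6, combination and isotype mice, and 3.19 ± 0.601 in no CIA mice. Mean Irgm2 was 4.50 ± 1.63, 4.16 ± 1.89, 4.32 ± 1.39 and 4.50 ± 1.81 FPKM in the same 4 groups, and 1.64 ± 0.417 in no CIA mice.

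Iigp1, the effector, had the largest ratio to no CIA of the 10 members in each immunised group. It was 2.58 to 13.3 FPKM in anti-TNF mice (median 4.89), 2.52 to 16.0 in anti-IL-6 mice (median 3.74), 2.55 to 13.3 in combination mice (median 4.99) and 2.61 to 11.3 in isotype mice (median 4.38), against 0.960, 1.15, 1.66 and 1.17 FPKM in no CIA mice. No immunised mouse reached down to the no CIA range. The means were 5.59 ± 2.93, 5.53 ± 3.82, 5.63 ± 2.92 and 5.37 ± 2.65 FPKM in anti-TNF, anti-IL-6, combination and isotype mice, and 1.23 ± 0.297 in no CIA mice. It also shifted place among the members: in isotype mice it followed Irgm1, Igtp, Gbp3 and Gbp2 in mean FPKM and was above Irgm2 in 10 of 13 mice, whereas in no CIA mice its mean was next to that of Gbp6, which was the higher one in 2 of 4 mice. Neighbours in the isotype order kept that order in 9 to 13 of the 13 mice, with Igtp above Gbp3, and Gbp3 above Gbp2, in only 9.

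Differences were tested with limma on log2(FPKM + 1), with Benjamini-Hochberg adjustment over all 14700 features with a mean of at least 1 FPKM in any group and a threshold of 0.05. Gbp7 was under that level and was not tested, so counts are out of 9. Gbp5 is among these 9 but passed the filter only through the immunised groups, with a mean of 0.626 FPKM in no CIA mice. Differences on this scale understate the change of genes with low values. Each comparison with no CIA rests on the same 4 mice.

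In isotype mice against no CIA, 2 of the 9 tested members passed the test, both higher, where 0.150% of all tested features were called higher. Gbp3 rose by 1.18 ± 0.222 (log2, SE; adjusted p = 0.00534 by limma) and Iigp1 by 1.42 ± 0.326 (adjusted p = 0.0411). The other 7 differences were positive, 0.43 for Gbp6 to 1.04 for Igtp, with adjusted p from 0.0550 for Irgm1 and Irgm2 to 0.271 for Gbp6. The median over the 9 members was 0.94, beside 0.03 over all tested features. Groups did not overlap for 8 of the 9, all but Gbp6, where 1.59% of features were without overlap in that direction. Gbp7 also had no overlap, and its difference with no filter on levels was 0.47 ± 0.125 (adjusted p = 0.122). Gbp3 was called in 16 of the 17 fits that left out 1 mouse of either group and Iigp1 in 7, and no member was called without no CIA replicate 4 or with a pseudocount of 10.

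In anti-TNF mice against no CIA, 6 of the 9 rose, where 0.476% of features were called higher. They were Gbp2 (1.02 ± 0.243, adjusted p = 0.0266), Gbp3 (1.10 ± 0.222, adjusted p = 0.00578), Igtp (1.14 ± 0.293, adjusted p = 0.0481), Irgm1 (0.83 ± 0.197, adjusted p = 0.0266), Irgm2 (1.02 ± 0.238, adjusted p = 0.0243) and Iigp1 (1.46 ± 0.326, adjusted p = 0.0151). Gbp4, Gbp5 and Gbp6 differed by 0.86, 0.65 and 0.43, with adjusted p of 0.125, 0.0558 and 0.208. The median was 1.02 beside 0.03 over all features, and 8 of the 9 did not overlap, where 0.714% of features did not. Without no CIA replicate 1 or 2 the count was 1, and without no CIA replicate 4, or with a pseudocount of 10, it was 0.

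In anti-IL-6 mice against no CIA, Gbp2 (0.95 ± 0.243, adjusted p = 0.0483), Gbp3 (1.07 ± 0.222, adjusted p = 0.00863) and Iigp1 (1.39 ± 0.326, adjusted p = 0.0291) rose, which is 3 of the 9, where 0.401% of features were called higher. The median was 0.90 beside 0.07 over all features, and 5 of the 9 did not overlap, where 2.70% of features did not. In combination mice against no CIA, Gbp3 (1.11 ± 0.222, adjusted p = 0.0161) and Iigp1 (1.47 ± 0.326, adjusted p = 0.0308) rose, which is 2 of the 9, where 0.143% of features were called higher. The median there was 0.95 beside 0.02, and 6 of the 9 did not overlap, where 1.46% of features did not. Both counts were 0 without any 1 of no CIA replicates 1, 2 and 4 and with a pseudocount of 10, and the anti-IL-6 count was also 0 with muscle and epidermis scores as covariates. No member was called lower against no CIA, where 0.0748%, 0.156%, 0.0136% and 0.00680% of features were called lower in anti-TNF, anti-IL-6, combination and isotype mice.

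The mean of the 4 immunised groups against no CIA, which uses every mouse, called 7 of the 9 higher, where 0.544% of features were called higher, and 0 lower, where 0.0884% of features were. Gbp3 (1.12 ± 0.202, adjusted p = 0.00213) and Iigp1 (1.43 ± 0.296, adjusted p = 0.00622) had the smallest p, followed by Irgm2 (0.97, adjusted p = 0.0125), Irgm1 (0.78, adjusted p = 0.0165), Gbp2 (0.96, adjusted p = 0.0176), Gbp5 (0.63, adjusted p = 0.0263) and Igtp (1.09, adjusted p = 0.0305). Gbp4 at 0.90 (adjusted p = 0.0593) and Gbp6 at 0.40 (adjusted p = 0.178) did not pass. With no filter on levels, the adjusted p of Gbp5 was 0.0399 by limma. For 4 members, Gbp3, Igtp, Irgm1 and Iigp1, no immunised mouse overlapped no CIA, where 0.245% of features were so. The count was 1 without no CIA replicate 1 or 2 or with a pseudocount of 10, and 0 without replicate 4. Within the first index run, the only one that held no CIA mice, isotype replicates 4 and 7 exceeded no CIA on average for all 10 members, by 0.58 (Gbp6) to 1.75 (Gbp3) on the log2 scale. Replicate 4 was the highest isotype mouse by mean z of the members over all libraries (1.63), while replicate 7 had 0.04. For 1 member, replicate 7 lay at or under the highest no CIA mouse.

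**Figure D3:**
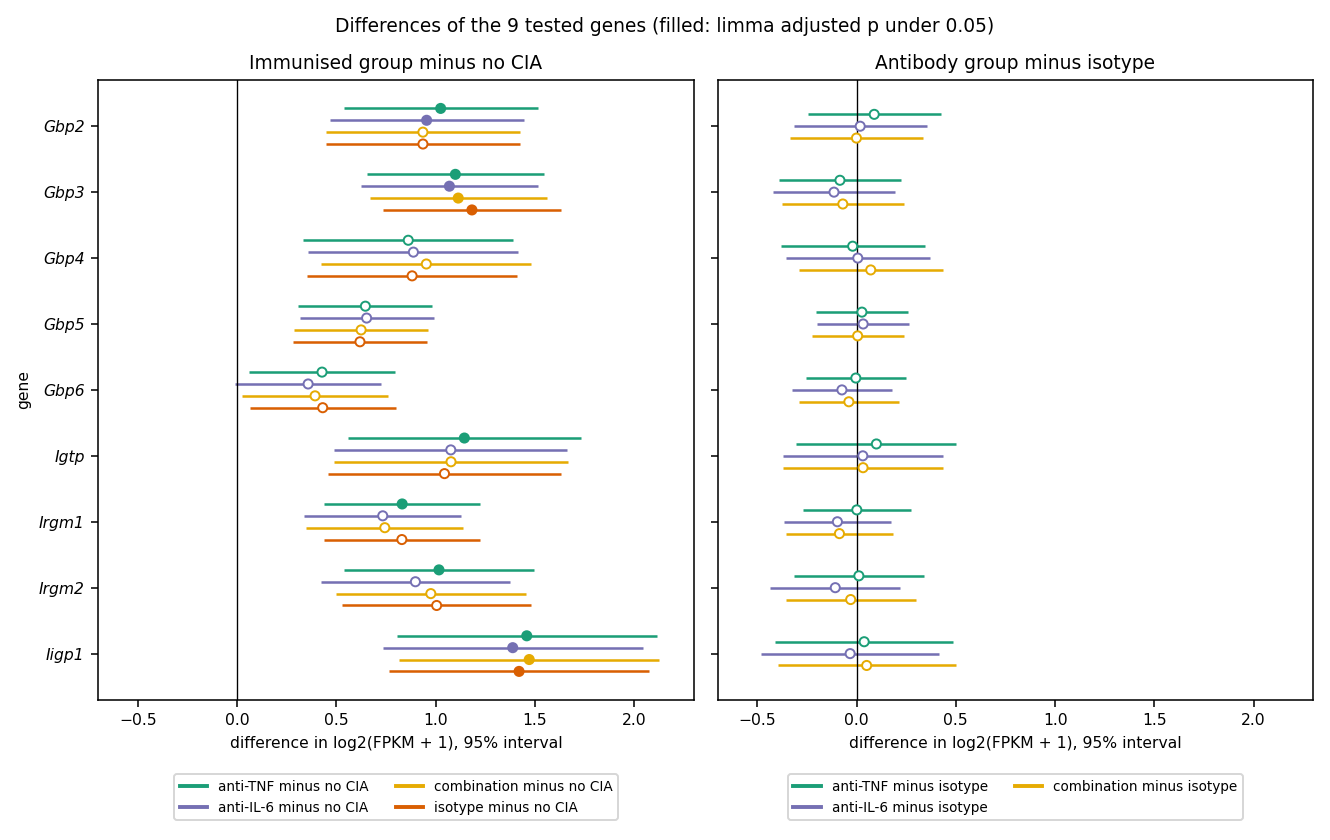
Difference in log2(FPKM + 1) for the 9 tested members with its 95% interval, for each immunised group minus no CIA (left) and each antibody group minus isotype (right). Filled points passed an adjusted p of 0.05 by limma. All points on the left are above 0, while those on the right lie between -0.11 and 0.10.

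None of the 9 tested members was called in any of the 5 comparisons among immunised groups, and 0 had an unadjusted p under 0.05 by limma. Of all features, that unadjusted level was passed by 5.47% for anti-TNF against isotype, 12.8% for anti-IL-6 against isotype, 5.78% for combination against isotype, 1.09% for combination against anti-TNF and 11.4% for combination against anti-IL-6. The largest difference between anti-TNF and isotype was 0.10 for Igtp (95% interval -0.30 to 0.50), and the lowest was -0.08 for Gbp3 (-0.39 to 0.22). Between anti-IL-6 and isotype they ran from -0.11 for Gbp3 (-0.42 to 0.19) to 0.03 for Gbp5 (-0.20 to 0.26), and between combination and isotype from -0.09 for Irgm1 (-0.36 to 0.18) to 0.07 for Gbp4 (-0.29 to 0.43). Combination minus anti-TNF ran from -0.09 (Gbp2) to 0.09 (Gbp4), and combination minus anti-IL-6 from -0.03 (Gbp5) to 0.08 (Iigp1). Over these comparisons the intervals reached -0.48 and 0.53 at most, both for Iigp1. In all features 0.00% were called in either direction for anti-TNF or combination against isotype and for combination against anti-TNF. Against isotype, anti-IL-6 had 0.735% of features called higher and 0.218% lower, and combination minus anti-IL-6 had 0.0612% higher and 0.0408% lower, with no member in any of these sets. The 4 immunised groups accounted for 0.229% (Gbp5) to 3.08% (Gbp7) of the variance of a member among immunised mice. Within the index runs that held both groups, the median of the members' differences took either sign: 0.49, 0.14 and -0.06 for anti-TNF minus isotype in runs 2, 3 and 5, -0.05, -0.38 and 0.45 for anti-IL-6 minus isotype in runs 2, 4 and 5, and 0.21, 0.10, -0.35 and -0.18 for combination minus isotype in runs 2, 3, 4 and 5. Some of these runs held a single mouse of a group. For every member the gap between the highest and lowest of the 4 means was smaller than the smallest SD within a group.

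Mice of the same group differed from each other in most members at once. Over the 52 immunised mice, with group means removed, the 45 pairs of members had a median Pearson r of 0.81 on log2(FPKM + 1). Irgm1 and Irgm2 were the closest pair (0.94) and Gbp3 and Gbp6 the most distant (0.25). The 6 pairs of immunity-related GTPases had a median r of 0.90, the 15 pairs of guanylate-binding proteins 0.75, and the 24 mixed pairs 0.82. The 10 pairs on the same chromosome had a median of 0.84 and the 35 others 0.80. All of these share libraries and depth, and Igtp and Irgm2 also share sequence. Gbp6 stood apart, with r between 0.25 and 0.49 to each of the other 9.

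**Figure D4:**
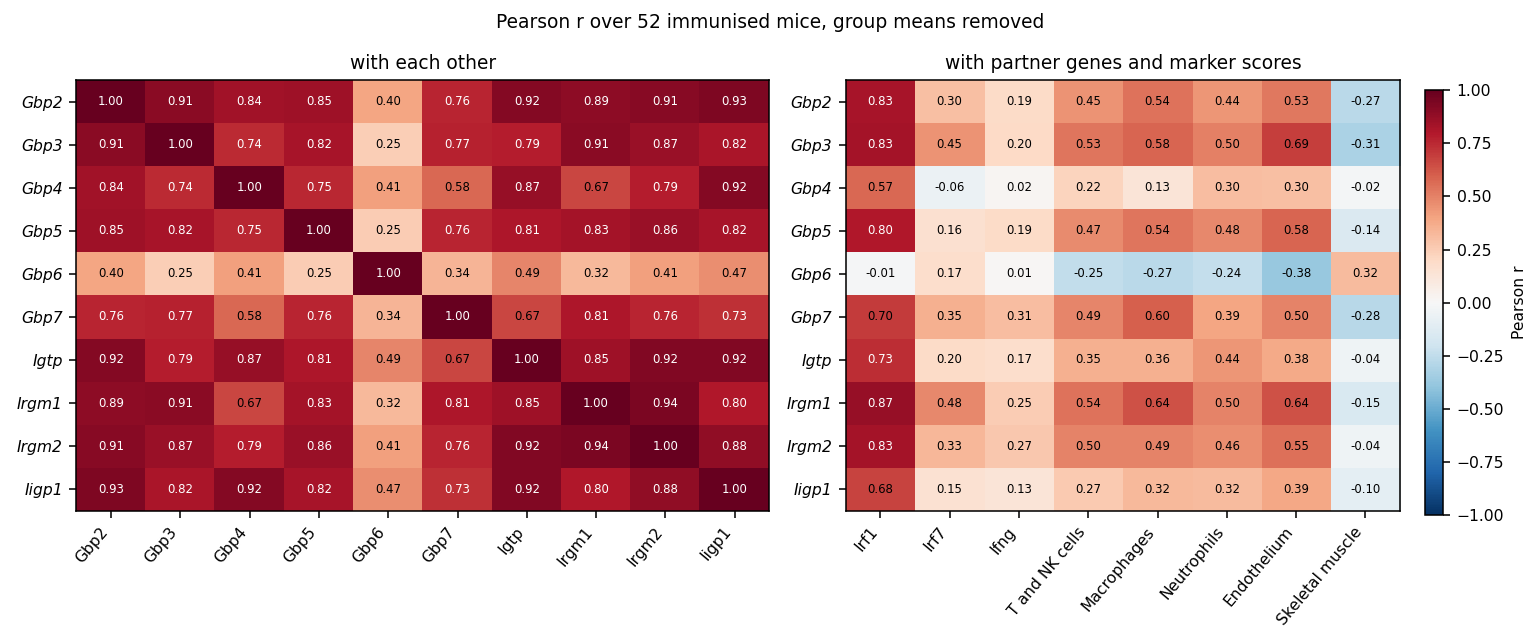
Pearson r of log2(FPKM + 1) over 52 immunised mice after removal of group means, among the 10 members (left) and with partner genes and marker scores (right). The Gbp6 row is pale on the left and turns to the opposite sign for the cell marker scores on the right.

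Correlations with genes of the pathway and with cell markers were taken for 10 members and 8 partners, which makes 80 relations, with p-values from 100000 permutations within groups and adjusted over all 80. Irf1, the interferon-induced factor that binds ISREs, had a median r of 0.77 with the members and passed for 9 of 10, with Irgm1 the highest (r = 0.87, rho = 0.88) and Gbp6 the exception (r = -0.01, rho = -0.08, permutation adjusted p = 0.932 for r). Irgm1 against Irf1 had a permutation p of 1e-05, the smallest these can give (adjusted 6.67e-05). Without the 2 mice farthest from the median of Irf1, the median r was 0.76. Within the 4 index runs that held 11 to 13 immunised mice each, the median r lay between 0.66 and 0.80. Irf7, a factor of the type I interferon response, had a median r of 0.25 and passed for 4 of 10 by Pearson's r and 2 by Spearman's rho. Its median r differed between index runs, from 0.02 in run 3 to 0.70 in run 5, where Irf1 had 0.68, so the order of the 2 factors was not the same in every run.

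Ifng itself was hardly detected. It reached at most 0.120 FPKM in any mouse and was listed at 0 in 3 of 13 anti-TNF, 6 of 13 anti-IL-6, 4 of 13 combination, 6 of 13 isotype and 3 of 4 no CIA mice. At that level its correlation with the members (median r 0.19, 1 of 10 passing by r and 0 by rho) is given as a description only. Within index runs that median r ran from 0.01 in run 4 to 0.81 in run 2.

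Of the cell marker scores, macrophage and endothelial markers had a median r of 0.52 each with the members, T and NK cell markers 0.46 and neutrophil markers 0.44, and muscle markers -0.12. The tests passed for 8, 9, 7, 9 and 2 of 10 members by r, in that order. Gbp6 ran the other way, with r of -0.25, -0.27, -0.24 and -0.38 for T and NK cell, macrophage, neutrophil and endothelial markers and 0.32 for muscle, of which the last 2 passed (permutation adjusted p = 0.0141 and 0.0487, with rho of -0.41 and 0.36). Macrophage markers passed for Gbp6 by rho alone (-0.34, permutation adjusted p = 0.0312). Within index runs the median r over members was 0.33 to 0.43 for macrophage, 0.41 to 0.66 for endothelial, 0.36 to 0.53 for T and NK cell, 0.29 to 0.64 for neutrophil and -0.44 to -0.04 for muscle markers. Summed neutrophil markers were 36.5 to 3262 FPKM in anti-TNF, 46.0 to 2283 in anti-IL-6, 39.8 to 1080 in combination and 25.5 to 1577 in isotype mice, against 19.2 to 57.6 in no CIA mice. Summed macrophage markers were 524 to 2794, 730 to 3528, 592 to 1644 and 499 to 2014 FPKM in the same immunised groups, against 525 to 665 in no CIA mice, and T and NK cell markers 3.47 to 36.8, 6.24 to 27.6, 6.96 to 47.5 and 5.21 to 18.8, against 4.72 to 7.43. Summed muscle markers were 1439 to 30667, 934 to 20764, 2356 to 32650 and 1428 to 20421 FPKM in those groups, against 5603 to 23072 in no CIA mice. Endothelial markers summed to 91.8 to 238, 99.2 to 310, 94.1 to 260 and 87.1 to 258 FPKM in anti-TNF, anti-IL-6, combination and isotype mice, against 83.7 to 126 in no CIA mice. Bone and cartilage markers summed to 35.3 to 1470, 40.5 to 1256, 44.5 to 996 and 41.5 to 1305 FPKM in these groups, against 23.8 to 178 in no CIA mice, and fibroblast markers to 961 to 5296, 1275 to 5531, 1315 to 5225 and 1310 to 6386, against 1194 to 2031. The highest sum was above that of no CIA in every immunised group for each of these lists but muscle, where only anti-TNF and combination exceeded it, and immunised ranges overlapped no CIA except that of macrophage markers in anti-IL-6 mice. All markers of these 7 lists were detected in at least 1 mouse. In any comparison with no CIA, 0 of their tested genes were called. Of all features, 0.143% to 0.544% were called higher and 0.00680% to 0.156% lower in these comparisons. For the immunised mean, the median log2 difference was 1.91 for neutrophil, 2.07 for bone and cartilage and 0.75 for macrophage markers. It was 0.54 for T and NK cell, 0.61 for endothelial, 0.61 for fibroblast and -0.86 for muscle markers, beside 0.96 for the members. The part of these markers in the members' differences was not tested.

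The highest member levels came from single mice. Anti-IL-6 replicate 11 was the highest of its group for 8 of 10 members, with 12.3 FPKM of Gbp4, 20.9 of Igtp and 16.0 of Iigp1. Anti-TNF replicate 8 was the highest of its group for 7 members, isotype replicate 4 for 5 and combination replicate 11 for 9. At the other end, combination replicate 3 was among the 3 lowest of its group for all 10 members, and for 3 of them it lay at or under the highest no CIA mouse. Among no CIA mice, replicate 3 was the highest for all 10 members. The map of members by library shows these mice as columns of 1 colour.

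**Figure D5:**
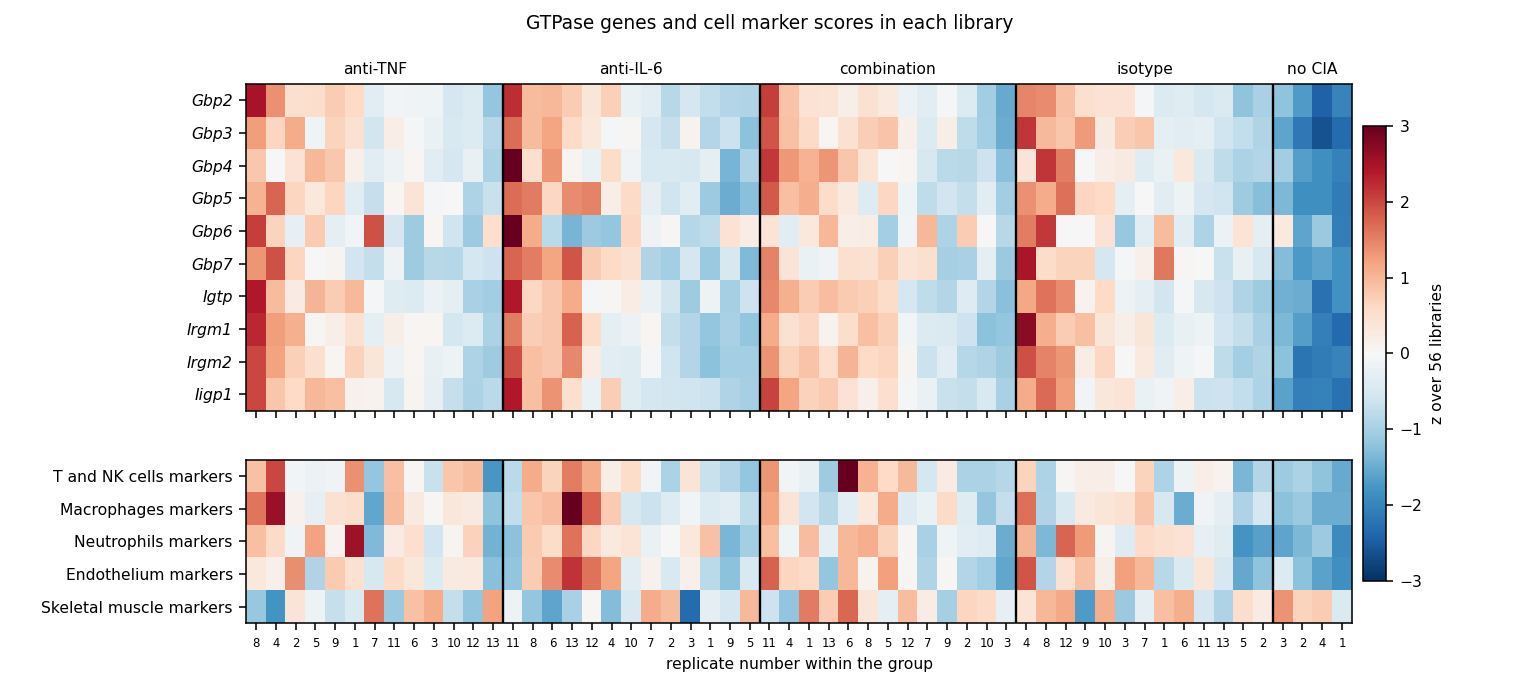
Members (top) and scores of cell markers (bottom) in each of 56 libraries, as z over all libraries, with the mice of a group ordered from the highest to the lowest mean of the members. Mice at the left of a group are high for nearly all members, and the 4 no CIA mice are low for nearly all of them.

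Genes outside the members were ranked by Pearson r to the mean member profile over the 52 immunised mice with group means removed, among 14700 features. The closest 5 were Gm4070 (r = 0.93), Tgtp2 (0.90), Gbp9 (0.88), Ifi47 (0.88) and Tgtp1 (0.83). Among the tested members, which are all but Gbp7, Gbp6 had the lowest r to that profile, 0.50. Each member is itself part of the profile, which raises its r. Tgtp2 averaged 4.09 ± 1.87, 3.80 ± 3.03, 4.18 ± 2.20 and 3.97 ± 2.49 FPKM in anti-TNF, anti-IL-6, combination and isotype mice, and 0.865 ± 0.417 in no CIA mice. Ifi47 averaged 6.47 ± 2.98, 5.53 ± 2.44, 5.36 ± 1.97 and 5.09 ± 1.73 FPKM in the same immunised groups, and 1.87 ± 0.635 in no CIA mice.

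The rest of the pathway was read from 4 lists, whose counts stand beside 0.476%, 0.401%, 0.143% and 0.150% of all tested features called higher in anti-TNF, anti-IL-6, combination and isotype mice against no CIA. Of 16 tested genes of interferon signalling, 1 was called higher in isotype mice against no CIA, namely Irf9 (log2 0.75, limma adjusted p = 0.0183), a partner of STAT2, and 3 in anti-TNF mice: Irf9, Nlrc5, an activator of MHC class I genes (1.00, adjusted p = 0.00775), and Stat2 (0.73, adjusted p = 0.0261). Irf9 and Nlrc5 were the 2 called in anti-IL-6 and the 2 called in combination mice. Irf1 did not pass: for the mean of the immunised groups it differed by 0.76 (adjusted p = 0.115 by limma). Of 6 tested genes among 18 measured other interferon-inducible GTPases, Tgtp2 was called in anti-TNF mice (1.39, adjusted p = 0.0370) and 0 in each of the anti-IL-6, combination and isotype groups, while the mean of the immunised groups called Tgtp2 (1.32, adjusted p = 0.0221) and Gbp9 (0.57, adjusted p = 0.0253). Both passed the filter on levels only through the immunised groups, with means of 0.865 and 0.669 FPKM in no CIA mice.

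Of 25 tested other interferon-gamma-induced genes, 5 were called higher in anti-TNF, 5 in anti-IL-6, 1 in combination and 1 in isotype mice against no CIA. B2m, the light chain of MHC class I, was called in all 4 comparisons (1.17, 1.09, 1.01 and 1.02, with adjusted p of 0.00368, 0.00495, 0.0261 and 0.0214), and Psmb8 and Psmb9, subunits of the immunoproteasome, in anti-TNF mice (1.10 and 1.13, adjusted p = 0.0115 and 0.00945) and in anti-IL-6 mice (1.04 and 1.03, adjusted p = 0.0244 and 0.0268). Of 23 tested type I interferon-induced genes, 13, 11, 8 and 12 were called higher in anti-TNF, anti-IL-6, combination and isotype mice against no CIA. Oas1a, which makes the activator of RNase L, rose by 1.81, 1.61, 1.74 and 1.74 in these comparisons, and Rtp4, an interferon-induced receptor transporter protein, by 1.71, 1.56, 1.62 and 1.75, with limma adjusted p between 0.00294 and 0.0161. Oas1a too passed the filter only through the immunised groups, with a mean of 0.552 FPKM in no CIA mice. The median difference from no CIA for the type I list was 0.91, 0.78, 0.95 and 1.04 in anti-TNF, anti-IL-6, combination and isotype mice, beside 1.02, 0.90, 0.95 and 0.94 for the 9 tested GTPases. None of these 4 lists had a gene called lower against no CIA.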

How the data were processed

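The deposited table holds FPKM per feature and library. That unit is inferred from the deposited values, as the header names none. Per the labels' protocols, libraries were made with a stranded TruSeq mRNA kit and read as pairs on a NovaSeq system. DESeq2, with no version, is named per the submitters' processing notes, with aligner, build and use of strand not given in the sources used here. Depth was estimated from the steps of low values in single-exon genes (mean 46.9 ± 3.62 M fragments, SD, n = 56). Symbols and coordinates came from GENCODE M21 (GRCm38), promoters from RefSeq.

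All 56 libraries entered 1 fit of limma 3.58.1 (R 4.3.3, trended and robust prior, two-sided, 51 residual degrees of freedom) on log2(FPKM + 1), with a mean per group; errors of differences are standard errors. The fit was tested on simulated data. Correlations used Python 3.11.15 with scipy 1.17.1. Alternatives were pseudocounts of 0.1 and 10, no filter, median-of-ratios scaling, TPM, the compared groups alone, covariates for index run and for muscle and epidermis scores, and leaving out mice. The members and the lists were chosen with earlier results of these data known. Named genes are all members, the 5 genes closest to their profile, and genes taken from the up to 3 called genes of each list with the smallest p. Of the latter, Ifih1, Oasl2 and H2-D1 met that rule and were not described. Psmb9 in anti-IL-6 mice was described outside that rule. Ifng, Irf1, Irf7, Gbp10 and Gm43302 were partners or copies, and Ifi47 and Tgtp2 were picked from the closest genes; Cxcl9 and Cxcl10 were named after their values were seen. Another partner gene is not reported here.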

Additional observations from a re-analysis of the deposited data

Results flagged for a closer look

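Among the 10 members, the 4 no CIA mice were checked for a mouse far from the others, and 1 value stood out. Irgm2 was 2.26 FPKM in no CIA replicate 3, with the nearest of the other 3 at 1.51, and this gap was 0.844 of the group's whole range, above Dixon's critical ratio at the 95% level. Chance gives about 1 such flag in 20 groups. The same mouse was the highest no CIA mouse for all 10 members.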

How the results depend on the processing

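No paired analysis was possible because replicate numbers were given in accession order and tie no mice of different groups together. The members' differences from no CIA were positive in every alternative, while the number called moved. In isotype mice (2 called) it was 6 with a pseudocount of 0.1, 0 with 10, 1 with no filter, 4 with median-of-ratios scaling, 4 with TPM, 7 with the index run in the model, 4 after adding scores for muscle and epidermis, 1 without both mice whose numbers stand in each other's block, and 4 without the 2 least correlated libraries, an alternative chosen after seeing the data. In anti-TNF mice (6 called) it was 0 with a pseudocount of 10 and 3 with muscle and epidermis scores. In anti-IL-6 mice (3 called) it was 8 and 0 with pseudocounts of 0.1 and 10, 1 in the compared groups alone, 0 with muscle and epidermis scores, 6 without both mice out of block and 1 without the 2 least correlated libraries. In combination mice (2 called) it was 6 and 0 with the same pseudocounts, and for the immunised mean (7 called) 1 with a pseudocount of 10 and 4 with muscle and epidermis scores. The cause was not tested. With the index run in the model, only isotype replicates 4 and 7 link the no CIA mice to the other runs.

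Leaving out 1 mouse gave 0 to 5 calls in isotype, 0 to 7 in anti-TNF, 0 to 7 in anti-IL-6, 0 to 4 in combination and 0 to 8 for the immunised mean. In isotype mice the count was 4 without isotype replicate 1, 2 or 13, 5 without 5, and 1 without 3, 4, 8, 9, 10 or 12 or without no CIA replicate 1, 2 or 3. In anti-IL-6 mice it was 6 without replicate 1, 7 without 2 or 5, 5 without 9, and 1 without replicate 6 or no CIA replicate 3. In combination mice it was 4 without replicate 3 and 1 without 1, 4, 6 or 11 or no CIA replicate 3. Among immunised groups 0 members were called in every alternative and every fit without 1 mouse, though the sign of at least 1 uncalled difference changed in 2 to 7 of 10 alternatives.

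TPM and index run moved the median of all features in anti-IL-6 against no CIA to 0.12 and 0.11. In isotype mice alone the median r of the members was 0.38 with macrophage markers, -0.43 with Ifng and 0.28 with muscle markers. P-values set a difference against the spread between mice, and 4 no CIA mice limit every comparison with that group. For no CIA mice the labels list neither immunisation nor antibody injection, so what each contributed cannot be told apart. The no CIA mice were also all in the first index run, which held only isotype replicates 4 and 7 besides.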

Other observations

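The 5 immunised mice with the highest mean of the members were of different make-up, seen after their values were known. Anti-IL-6 replicate 11 and isotype replicate 8 had neutrophil scores (mean log2(FPKM + 1) of the markers) of 1.74 and 1.62 and macrophage scores of 5.07 and 4.97. Anti-TNF replicate 8, combination replicate 11 and isotype replicate 4 had neutrophil scores of 4.28, 4.27 and 4.43 and macrophage scores of 6.43, 6.19 and 6.46.

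The same mice differed in other interferon-induced genes. Tgtp2 was picked as a gene close to the mean member profile (r = 0.90), and these mice for a high mean of the members. High Tgtp2 in them thus follows in part from how both were picked. A split between Tgtp2 and Oas1a or Rtp4 was not tested. In anti-IL-6 replicate 11, Tgtp2 was 12.7 FPKM, the highest of the 52 immunised mice, while Oas1a was 2.07 FPKM, with 46 mice higher, and Rtp4 was 7.42, with 31 higher. Isotype replicate 8 had 9.89 FPKM of Tgtp2, with 1 mouse higher, and 1.83 FPKM of Oas1a, with 50 higher. In isotype replicate 4, by contrast, Oas1a (13.4 FPKM), Rtp4 (30.8), Irf7 (23.3) and Cxcl10 (5.66), a chemokine chosen after its values were seen, were each the highest of the 52, and Tgtp2 was 5.87, with 9 higher. Anti-TNF replicate 8 had the highest Cxcl9, chosen in the same way, at 3.08 FPKM, and 1 mouse was higher for Cxcl10. For Cxcl9, 17 mice were higher than isotype replicate 4. In combination replicate 11, 5 mice were higher for Cxcl9 and 9 for Cxcl10. In anti-IL-6 replicate 11 they were 24 and 24, and in isotype replicate 8 they were 32 and 28. The median over the 52 mice was 3.32 FPKM for Tgtp2, 4.01 for Oas1a and 9.20 for Rtp4. Ifng was listed at 0 in anti-IL-6 replicate 11 and in isotype replicates 4 and 8, and also in combination replicate 3. It was 0.0718 FPKM in anti-TNF replicate 8, with 6 mice higher, and 0.0383 in combination replicate 11, with 14 higher. Combination replicate 3, the lowest, had 8.71 FPKM of Irf1, with 51 mice higher. Among the mice with high members, Irf1 was 33.4 FPKM in anti-TNF replicate 8, with 1 mouse higher. It was 28.3 in combination replicate 11 and 27.3 in isotype replicate 4, with 3 and 4 higher. In anti-IL-6 replicate 11 and isotype replicate 8 it was 21.4 and 18.5, with 14 and 22 higher. Median Irf1 over the 52 mice was 17.8 FPKM.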
